A study of Mus musculus with 4 samples.

Results

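The genes described here are 36 markers of blood endothelium, the cells that line blood vessels, chosen by name as receptors, ligands, junction and surface proteins, transcription factors and tip-cell genes. Earlier results of these data were known when they were chosen, so shares among them describe the chosen genes and are no independent support. A transcript cluster of the array that carries 1 gene symbol was read for 35 of them, each by 1 cluster, out of 22180 genes so named; Rasip1, a regulator of vessel lumen formation, was not analysed here. The study hybridised 4 arrays of the Affymetrix Mouse Gene 2.0 ST design, with 1 for Tbx1 knockout (KO) palatal shelves and 1 for wild-type (WT) palatal shelves at embryonic day 13.5 (E13.5), and 1 each for KO heads and WT heads at E12.5. All embryos were of a mixed C57BL/6J x FVB/N background, the labels name no allele and no deleted part of Tbx1, and they do not say whether tissue of several embryos was pooled. The question was how these genes differ without Tbx1, a T-box transcription factor of the developing pharynx and face, in the 2 tissues.

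Endothelial cells form the inner wall of every vessel. Vascular endothelial growth factor (VEGF) from the surrounding tissue binds receptors on them, and tip cells at the ends of sprouts lead new vessels while Notch signalling holds back their neighbours. Angiopoietins and their Tie receptors steady the vessel wall, and factors of the ETS, SOX and haematopoietic families set the endothelial programme. In the embryonic head these vessels supply both the brain and the mesenchyme of the face, from which the palatal shelves grow.

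Levels are log2 expression values after RMA, an array normalization that sets the arrays to a common distribution, so a difference of 1 is a 2-fold difference. With 1 array per group, a KO minus WT difference within a tissue has no replicate check and no p-value, so precision is bounded by how few arrays there are. A gene entered the comparison of a pair if it was at 6.16 or more on at least 1 of the 2 arrays, a limit set at the overall median of named genes. By the disagreement of 2 bright clusters of 1 gene on the same 2 arrays, the probes alone gave such a difference an SD. It was 0.226 in the shelves (233 genes) and 0.176 in the head (232 genes). Both clusters were read from the same RNA and arrays, so this SD leaves out any spread between embryos, dissections or arrays. Across all transcript clusters Pearson's r, over genes that are not independent replicates, was 0.988 between the shelf arrays and 0.991 between the head arrays, against 0.973 to 0.979 across tissues. Tbx1 was at 6.18 in KO shelves and 7.39 in WT shelves, and at 6.25 in KO heads and 6.83 in WT heads. Whether its probes lie in a deleted part is not stated, so its level does not check the genotype labels. Palatal mesenchyme factors marked the shelves by limma, a linear model with a shared variance prior (adjusted p under 0.05). There 6 of 7 mesenchyme genes and 5 of 5 oral epithelium genes were higher than in the head (background 13.0% of all genes tested). In the other direction, 10 of 10 neuron genes were lower (background 14.9%).

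In the palatal shelves, 30 of the 35 endothelial genes were at higher levels on the KO array than on the WT array, and 5 were at lower levels. That is 85.7% of them, against 48.6% of all named genes, though the 35 were chosen with earlier results of these data known. Their median log2 difference was 0.20, with quartiles of 0.04 and 0.30, and values ran from -0.44 (Esm1) to 0.63 (Flt1). In the head, 25 of the 35 were higher on the KO array, 71.4% against 52.2% of all named genes, with a median of 0.11 and values from -0.27 (Tie1) to 0.37 (Egfl7). The median over all named genes was -0.0068 in the shelves and 0.0089 in the head. Among genes that entered, 26 of 29 were above 0 in the shelves (background 55.2%) and 3 below (44.8%), and 23 of 31 were above 0 in the head (background 44.5%) and 8 below (55.5%). The differences were small: 1 of 29 endothelial genes that entered in the shelves was at least 1.5-fold higher (background 1.91% of 11449 genes) and 0 were at least 1.5-fold lower (background 1.34%). In the head, 0 of 31 passed 1.5-fold in the higher direction (background 0.106% of 11364 genes) and 0 in the lower (background 0.352%). At an increase of 25% or more, the count over all 35 was 6 in the shelves (17.1%, against 7.25% of all named genes) and 2 in the head (5.71%, against 6.6%), and in the lower direction it was 1 (Esm1, background 8.85%) and 0 (background 3.67%). In such bulk samples a higher level from more endothelial cells and one from more RNA per cell cannot be told apart, nor can fewer cells and less RNA per cell for the genes that were lower.

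**Figure D1:**
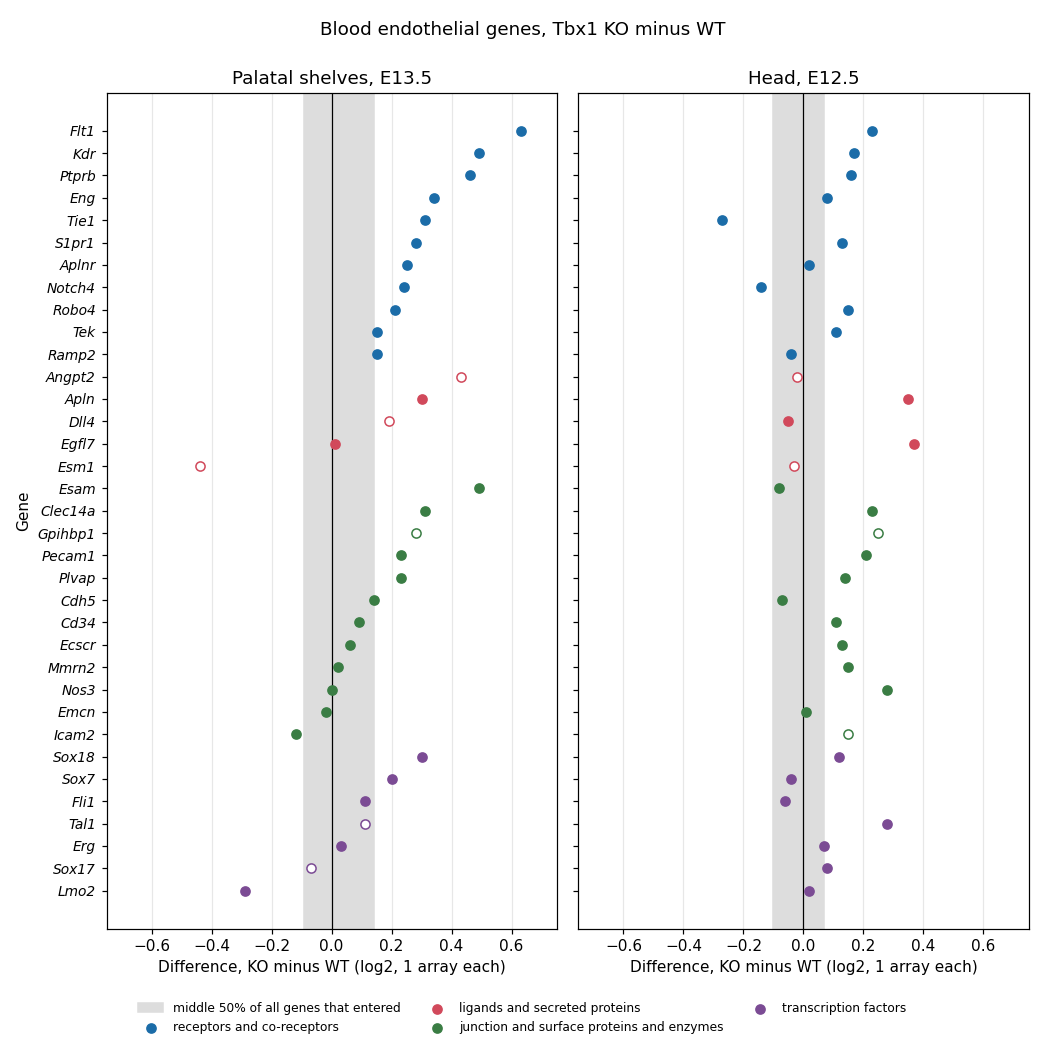
KO minus WT difference in log2 level (x axis, 1 array per group) of the 35 endothelial genes (rows, coloured by role) in palatal shelves at E13.5 and heads at E12.5. Grey spans the quartiles of all genes that entered, and open points are genes below the entry limit of 6.16 on both arrays of the pair. In the shelves all 11 receptors lie between 0.15 and 0.63, while in the head Tie1 stands lowest at -0.27.

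The plot of all genes shows where the endothelial genes sit. In the shelves 18 of the 29 that entered (62.1%) were at or above the upper quartile of all genes, a log2 difference of 0.142, where 25.0% of genes lie. In the head 19 of 31 (61.3%) were at or above the upper quartile of 0.0699, again with a background of 25.0%. Since a gene can enter through the array on which it is high, these shares describe the genes that entered and not all 35. In the shelves Esam entered only through its KO array, and Icam2 and Lmo2 only through their WT arrays. Both pairs together gave 21 of 35 genes (60.0%) higher on both KO arrays, against 25.3% of all named genes, and 1 gene, Esm1, lower on both, against 24.5%. The remaining 13 went opposite ways, 9 of them higher on the KO array in the shelves and lower in the head. For 22 of the 35 genes the shelf difference was above the head difference, against 48.0% of all named genes.

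**Figure D2:**
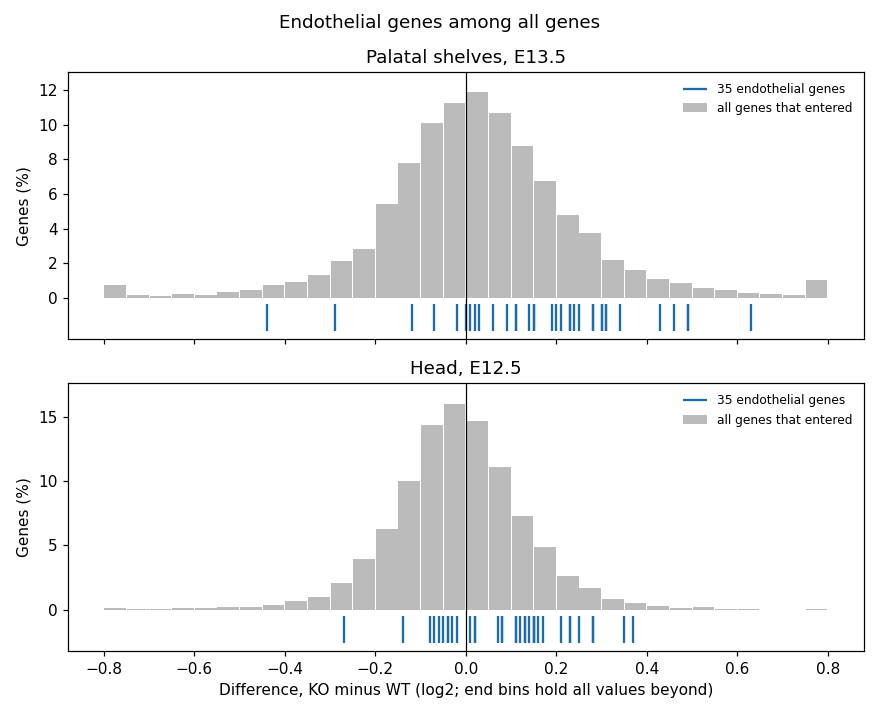
Percentage of all genes that entered (grey bars, y axis) by KO minus WT log2 difference (x axis, bins of 0.05, with values beyond 0.8 in the end bins), and the 35 endothelial genes as blue ticks, whether or not they entered. The ticks lean to the right of 0 in the shelves (median 0.20) and less so in the head (median 0.11).

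The receptors all went one way in the shelves. All 11 were higher on the KO shelf array, with a median log2 difference of 0.28 and a range of 0.15 to 0.63, whereas in the head 8 of 11 were higher, with a median of 0.11. Flt1 and Kdr encode the receptors through which VEGF acts on endothelium; Kdr carries most of the growth signal and Flt1 binds the ligand tightly and limits it. Flt1 was at 7.55 in KO shelves and 6.92 in WT shelves, 1.55-fold higher, and at 7.23 in KO heads and 7.01 in WT heads. It ranked at position 182 of 11449 genes in the shelves and was the 1 member past 1.5-fold. Kdr was at 8.88 in KO shelves and 8.40 in WT shelves, and at 8.96 in KO heads and 8.79 in WT heads. For both genes each KO array was above its WT array, and the shelf difference (0.63 and 0.49) exceeded the head difference (0.23 and 0.17), although the difference between tissues was not tested.

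Promoter windows are shown for 4 members on which the results turn: Flt1 and Kdr, with the highest receptor differences in the shelves, Tie1, with opposite differences in the 2 tissues, and Emcn, higher in shelves than in head. They are the 250 bases before the gene start from RefSeq (GRCm38.p6), 5′ to 3′ on the gene's strand. Capitals mark AGGAAG or CGGAAG, read on both strands (so also CTTCCT and CTTCCG), letters that contain the GGAA core bound by ETS factors such as Erg and Fli1.
Flt1: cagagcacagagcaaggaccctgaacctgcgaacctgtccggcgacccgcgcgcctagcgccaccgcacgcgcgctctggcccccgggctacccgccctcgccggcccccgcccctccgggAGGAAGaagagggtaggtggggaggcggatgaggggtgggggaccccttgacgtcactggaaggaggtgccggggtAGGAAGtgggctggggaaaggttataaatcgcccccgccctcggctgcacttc
Kdr: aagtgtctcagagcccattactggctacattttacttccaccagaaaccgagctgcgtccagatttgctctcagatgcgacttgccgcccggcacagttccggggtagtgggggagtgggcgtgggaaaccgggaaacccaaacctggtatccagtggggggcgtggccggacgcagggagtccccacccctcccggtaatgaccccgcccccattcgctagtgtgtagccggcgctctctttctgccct
Tie1: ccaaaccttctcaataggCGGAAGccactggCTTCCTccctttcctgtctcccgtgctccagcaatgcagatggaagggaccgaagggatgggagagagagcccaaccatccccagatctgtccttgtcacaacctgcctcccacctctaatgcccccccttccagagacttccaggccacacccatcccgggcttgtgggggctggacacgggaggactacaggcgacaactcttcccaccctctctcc
Emcn: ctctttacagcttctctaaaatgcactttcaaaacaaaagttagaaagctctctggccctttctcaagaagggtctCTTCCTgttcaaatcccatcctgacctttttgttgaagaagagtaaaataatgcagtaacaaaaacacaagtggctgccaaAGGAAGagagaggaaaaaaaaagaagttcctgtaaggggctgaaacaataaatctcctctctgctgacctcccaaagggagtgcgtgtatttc
These windows lie at chr5:147726012-147726261, minus strand (Flt1), at chr5:75978456-75978705, minus strand (Kdr), at chr4:118489850-118490099, minus strand (Tie1) and at chr3:137340828-137341077, plus strand (Emcn). Flt1 and Emcn each held 2 matches to AGGAAG, Tie1 held 1 to each motif, and the Kdr window held neither. The table held 22 windows for 17 members; 12 of them (54.5%) held AGGAAG and 1 (4.55%) CGGAAG, against 29.5% and 13.6% of all 32851 windows of the same length. A match describes letters and not binding, and windows of 1 gene are not independent.

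Ptprb, the vascular endothelial phosphatase VE-PTP that restrains Tie receptor and junction signalling, followed the VEGF receptors. Its level was 6.98 in KO shelves and 6.52 in WT shelves, and 6.74 in KO heads and 6.57 in WT heads. Eng, the TGF-beta co-receptor endoglin, was at 9.09 in KO shelves and 8.75 in WT shelves, with 8.99 in KO heads and 8.91 in WT heads. S1pr1, the sphingosine-1-phosphate receptor that stabilises junctions, had differences of 0.28 in the shelves and 0.13 in the head. Robo4, an endothelial guidance receptor, had 0.21 and 0.15, and Aplnr, the apelin receptor, 0.25 and 0.02.

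The 2 Tie receptors differed from each other. Tek, the angiopoietin receptor, was at 7.60 in KO shelves and 7.45 in WT shelves, and at 7.39 in KO heads and 7.28 in WT heads, a small difference of one sign. Tie1, its partner receptor, was at 7.49 in KO shelves and 7.18 in WT shelves, but at 6.77 in KO heads and 7.04 in WT heads. Tie1 thus had the lowest difference of the 35 in the head (-0.27) and a positive one in the shelves (0.31). Notch4, an endothelial Notch receptor, also went opposite ways, with 0.24 in the shelves and -0.14 in the head. Ramp2, the partner of the adrenomedullin receptor, had 0.15 and -0.04.

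The ligands and secreted proteins were less uniform, and 3 of the 5 did not enter in the shelves. Apln, the apelin peptide made by sprouting endothelium, was higher on both KO arrays, at 6.93 in KO shelves and 6.63 in WT shelves, and at 6.86 in KO heads and 6.51 in WT heads. Egfl7, an endothelial matrix protein, was at 7.34 in KO shelves and 7.33 in WT shelves, but at 7.47 in KO heads and 7.10 in WT heads, 1.29-fold, the highest of the 35 in the head. Apln and Egfl7 were the 2 members with an increase of 25% or more in the head. Angpt2, the angiopoietin of remodelling vessels, was at 5.64 in KO shelves and 5.20 in WT shelves, with 5.22 in KO heads and 5.24 in WT heads. Esm1, a proteoglycan of tip cells, was at 4.64 in KO shelves and 5.07 in WT shelves, with 4.77 in KO heads and 4.80 in WT heads. Neither of these 2 genes entered in either pair, and differences at such levels are less certain. Dll4, the Notch ligand of tip cells, had 0.19 in the shelves and -0.05 in the head. Of the 6 tip-cell genes (Kdr, Esm1, Apln, Angpt2, Dll4 and Cd34), 5 were higher on the KO shelf array (median 0.24) and 3 on the KO head array (median 0.05).

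**Figure D3:**
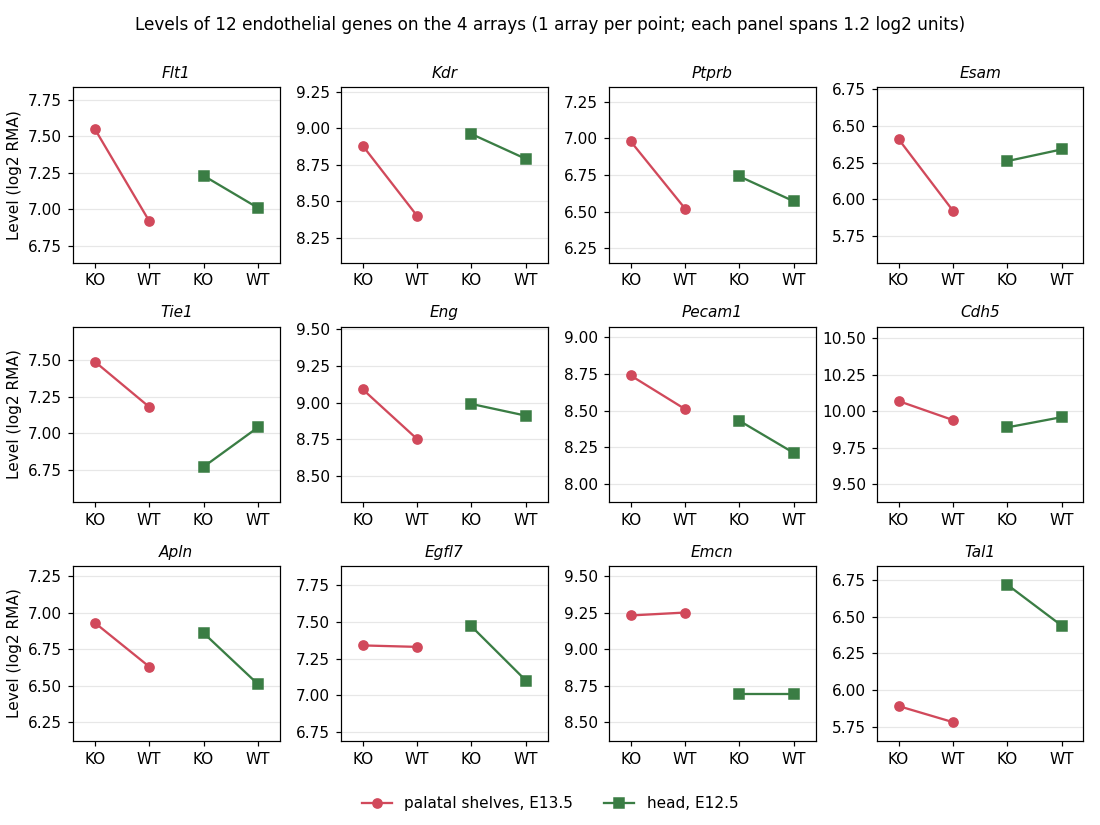
Log2 RMA level (y axis, 1.2 log2 units per panel) of 12 endothelial genes on the 4 arrays, with KO to the left of WT in the shelves at E13.5 (red circles) and the head at E12.5 (green squares); each point is 1 array. Flt1 and Kdr slope down towards WT in both tissues, Tie1 does so in the shelves and slopes up in the head, and Emcn and Tal1 differ mainly between tissues.

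Junction and surface genes include the most widely used pan-endothelial markers. Of 12 genes, enzymes included, 10 were higher on the KO array in each tissue, with medians of 0.11 in the shelves and 0.15 in the head. Cdh5, the VE-cadherin of endothelial adherens junctions, was at 10.07 in KO shelves and 9.94 in WT shelves, and at 9.89 in KO heads and 9.96 in WT heads. Pecam1, the adhesion molecule CD31, was at 8.74 in KO shelves and 8.51 in WT shelves, and at 8.43 in KO heads and 8.21 in WT heads. Both genes were well above the entry limit on all 4 arrays, so endothelial RNA was read in both tissues. Esam, an adhesion molecule of endothelial tight junctions, was at 6.41 in KO shelves and 5.92 in WT shelves, 1.40-fold. It was at 6.26 in KO heads and 6.34 in WT heads. Its WT shelf level was below the entry limit, so Esam entered the shelf pair only through its KO array. Clec14a, a C-type lectin of sprouting endothelium, was higher on both KO arrays (0.31 in the shelves and 0.23 in the head), as were its ligand Mmrn2 (0.02 and 0.15), the sialomucin gene Cd34 (0.09 and 0.11) and Ecscr (0.06 and 0.13). Plvap, the diaphragm protein of fenestrated vessels, had 0.23 and 0.14. Gpihbp1, which carries lipoprotein lipase across capillary endothelium, had 0.28 and 0.25 at levels under the entry limit. Nos3, the endothelial nitric oxide synthase, was at 6.40 in KO shelves and 6.39 in WT shelves, and at 6.66 in KO heads and 6.38 in WT heads. Icam2, which binds leukocyte integrins, had -0.12 and 0.15, and the sialomucin gene Emcn -0.02 and 0.01.

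The transcription factors had both signs in each tissue. Of 7, 5 were higher on the KO array in each tissue, and the medians were 0.11 in the shelves and 0.07 in the head. Erg and Fli1, ETS factors that maintain endothelial identity, had 0.03 and 0.11 in the shelves and 0.07 and -0.06 in the head. Among the SoxF factors, which act in arterial and lymphatic fate, Sox18 was at 6.96 in KO shelves and 6.66 in WT shelves, and at 7.35 in KO heads and 7.23 in WT heads. Sox7 had 0.20 and -0.04, and Sox17 -0.07 and 0.08. Tal1 and Lmo2, partners in a complex shared by blood and endothelial precursors, went apart: Tal1 had 0.11 in the shelves and 0.28 in the head, and Lmo2 was at 6.07 in KO shelves and 6.36 in WT shelves, with 6.48 in KO heads and 6.46 in WT heads.

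Over both tissues, the genotype effect was tested by limma with tissue as a term, 2 KO arrays against 2 WT arrays, with 1 residual degree of freedom. Of 32 endothelial genes in the fit, 30 had estimates above 0 and 2 below, and the median was 0.13 against 0.0047 over 11999 genes. By limma, 0 passed an adjusted p of 0.05 in either direction (background 0.0% higher and 0.0% lower), with adjusted p from 0.919 to 0.999. At an unadjusted limma p under 0.05 there were 5, all higher (15.6% against a background of 3.0% of all genes), and 0 lower (background 2.23%). They were Flt1 (log2 difference 0.43, SE 0.13), Apln (0.33, SE 0.10), Kdr (0.33, SE 0.12), Ptprb (0.31, SE 0.11) and Clec14a (0.27, SE 0.10). Each was higher on the KO array in both pairs. This fit gives low p-values mostly to genes whose shelf and head differences agree, so that agreement adds no support. Each of the 5 had a limma adjusted p of 0.919. Angpt2, Esm1 and Gpihbp1 were below the entry limit on all 4 arrays and outside the fit. The spread rests on 1 degree of freedom of the gene and 5.49 of a prior from all genes. With 1 array per group, that 1 degree of freedom is how far the shelf and head differences disagree. It is not a spread between replicates. These p-values therefore describe these arrays, whose spread may be technical.

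A list of VEGF, angiopoietin and apelin ligands, with the angiopoietin-like gene Angptl4, was read beside the endothelial genes. Whether each of these ligands acts on the receptors described here was not tested. Vegfa, the main endothelial growth factor, was at 10.05 in KO shelves and 8.88 in WT shelves, and at 8.96 in KO heads and 8.60 in WT heads. Vegfd, a ligand of lymphatic growth, was at 7.34 in KO shelves and 6.52 in WT shelves, with 6.38 in KO heads and 6.30 in WT heads. These 2 were the members of the ligand list past 1.5-fold in the shelves, out of 6 that entered (background 1.91% of genes that entered). The others had -0.06 (Vegfc), 0.22 (Vegfb), 0.32 (Angpt1, the activating ligand of Tek) and -0.04 (Angptl4) in the shelves, and 0.11, -0.01, 0.10 and -0.25 in the head. Hypoxia-inducible genes were higher beside Vegfa in the shelves. There 12 of 12 were higher on the KO array (median 0.80, from 0.18 to 1.38), against 48.6% of all named genes. Of 9 that entered, 8 were at least 1.5-fold higher, against the same background of 1.91%. In the head 6 of 12 were higher (median 0.02), against 52.2% of all named genes. None of these ligands or hypoxia-inducible genes passed the limma test for genotype, and the part of hypoxia or of VEGF in the endothelial values was not tested.

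Other endothelial genes, on a list that shares no gene with the 35, lay nearer to the values of all genes. Of 20 such genes, 12 were higher on the KO shelf array (median 0.03), against 48.6% of all named genes. On the KO head array 11 were higher (median 0.01), against 52.2%. Among those that entered, 10 of 17 were above 0 in the shelves (background 55.2%) and 10 of 15 in the head (background 44.5%). Vwf, the clotting factor stored in endothelium, was at 6.67 in KO shelves and 6.08 in WT shelves, and at 6.80 in KO heads and 6.34 in WT heads. The adhesion receptors Adgrf5 (0.59 and 0.13) and Adgrl4 (0.49 and 0.26) and the BMP receptor Acvrl1 (0.28 and 0.34) were also higher on both KO arrays. In the other direction, 8 of the 20 were lower on the KO shelf array and 9 on the KO head array. Cldn5, the tight junction claudin of brain vessels, had -0.11 and -0.07, and Tm4sf1 had -0.28 and -0.02. Ece1 had -0.12 in the shelves and 0.07 in the head, and Calcrl -0.05 and 0.01. Arterial and Notch genes had medians of 0.01 in the shelves and -0.03 in the head, with 7 and 5 of 12 above 0, and the 3 venous genes medians of 0.28 and 0.09, with Ephb4 at 0.28 and 0.26. Brain endothelial barrier genes had medians of 0.05 and -0.02 over 14 genes. Lymphatic genes had -0.00 in the shelves and -0.02 in the head over 5 genes, and Prox1 and Lyve1 had opposite signs in the shelves (0.52 and -0.42). Prox1 is also made by neural and muscle cells.

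**Figure D4:**
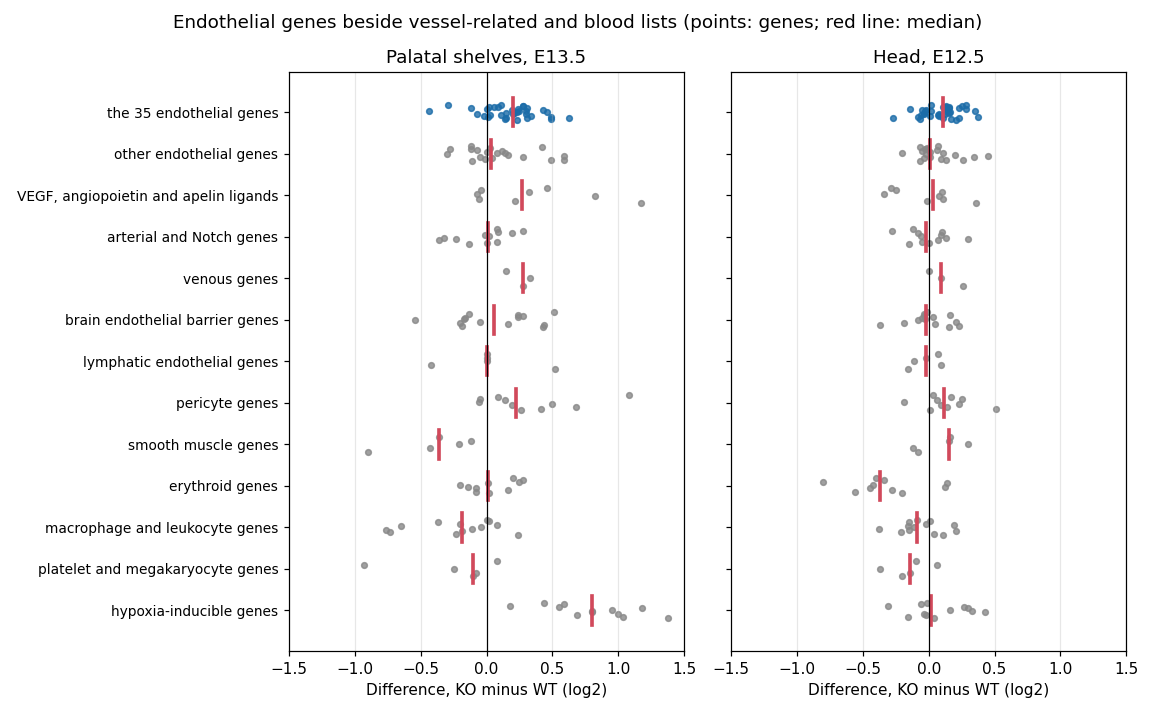
KO minus WT log2 difference (x axis) of each gene with a value (points) in the 35 endothelial genes (blue) and in vessel-related, blood and hypoxia lists (grey), with the median of each list as a red line, for shelves and head. In the shelves the medians are 0.20 for the endothelial genes, 0.22 for pericyte genes, 0.80 for hypoxia-inducible genes and -0.36 for smooth muscle genes.

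Marker lists of vessel wall cells went apart in the shelves, in bulk RNA that does not count cells. Of all named genes, 48.6% were higher on the KO shelf array and 52.2% on the KO head array. Pericyte genes, 8 of 10 higher on the KO shelf array (median 0.22) and 9 of 10 on the KO head array (median 0.11), included the regulator Rgs5 (0.41 and 0.51), the proteoglycan gene Cspg4 (0.68 and 0.14) and the potassium channel subunit gene Abcc9 (0.50 and 0.23). Ndufa4l2 was the highest of the pericyte list in the shelves (1.08, and 0.03 in the head). Smooth muscle genes were lower on the KO shelf array in 5 of 5 cases (median -0.36), 3 of which entered there. Acta2 was at 8.76 in KO shelves and 9.65 in WT shelves. In the head 3 of 5 smooth muscle genes were higher (median 0.15). Of the 3 that entered in the head, 1 was higher and 2 were lower (median -0.08). Acta2 is also made by immature skeletal muscle. Skeletal muscle genes were lower in 10 of 10 cases in both tissues (medians -1.31 and -0.84), while Acta2 had -0.9 in the shelves and -0.08 in the head. The part of skeletal muscle in the smooth muscle values was not tested.

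Some endothelial genes are also made by blood cells, so blood cell markers were read beside them. Of all named genes, 48.6% were higher on the KO shelf array and 52.2% on the KO head array. Erythroid genes had a median of 0.02 in the shelves and -0.37 in the head over 10 genes. Of these 10, 6 were higher on the KO shelf array and 2 on the KO head array, and only 3 and 6 entered. Macrophage and leukocyte genes were higher in 3 of 13 cases in the shelves (median -0.19) and 5 of 13 in the head (median -0.09). Platelet and megakaryocyte genes had medians of -0.10 and -0.14 over 5 genes, of which 1 entered in the shelves and 2 in the head. The 12 members counted here as also made by blood cells were Tal1, Lmo2, Fli1, Cd34, Pecam1, Icam2, Eng, Esam, S1pr1, Tek, Erg and Mmrn2. Of these 12, 10 were higher on the KO array in each tissue (median 0.11 in both). Without them, 20 of 23 endothelial genes were higher on the KO shelf array (median 0.23) and 15 of 23 on the KO head array (median 0.12). Neuron genes were also higher in the shelves, 9 of 10 higher on the KO shelf array (median 0.73) and 5 of 10 on the KO head array (median -0.00); their part in the result was not tested.

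The shelves were also set against the head, a contrast in which stage (E13.5 against E12.5) and tissue cannot be told apart. The endothelial genes as a group showed little shift, with 17 of 32 above 0 and a median of 0.07 (shelves minus head), against -0.02 over all genes. By limma, 1 rose in the shelves at an adjusted p of 0.05 (background 13.0%) and 2 fell (background 14.9%). At an unadjusted limma p under 0.05 there were 8 higher (background 19.1%) and 2 lower (background 21.1%), and with a mean-variance trend in the prior 4 passed higher. Emcn, a sialomucin of capillaries and veins, was at 9.23 in KO shelves and 9.25 in WT shelves, against 8.69 in KO heads and 8.69 in WT heads. Both shelf arrays were above both head arrays, a log2 difference of 0.55 (SE 0.10, limma adjusted p 0.00756). Relative to Pecam1, Cdh5 and Tie1, with each array centred on their mean, the difference was 0.28 and no longer passed (limma adjusted p 0.222). Tal1 fell by 0.74 on the log2 scale (SE 0.10, limma adjusted p 0.00283). Its level was 5.89 in KO shelves and 5.78 in WT shelves, against 6.72 in KO heads and 6.44 in WT heads. Both shelf values were below the entry limit, so Tal1 was in the fit only through its head arrays. With no filter on dim genes its limma adjusted p was 0.0136. Erythroid genes fell beside Tal1 in 6 of 6 cases tested, among them the embryonic globin gene Hbb-bh1 by 3.70 (limma adjusted p 4.27e-05), and their part in the Tal1 difference was not tested. Sox18 fell by 0.48 (SE 0.10, limma adjusted p 0.0164), at 6.96 in KO shelves and 6.66 in WT shelves, against 7.35 in KO heads and 7.23 in WT heads; with no filter on dim genes its adjusted p was 0.0589.

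**Figure D5:**
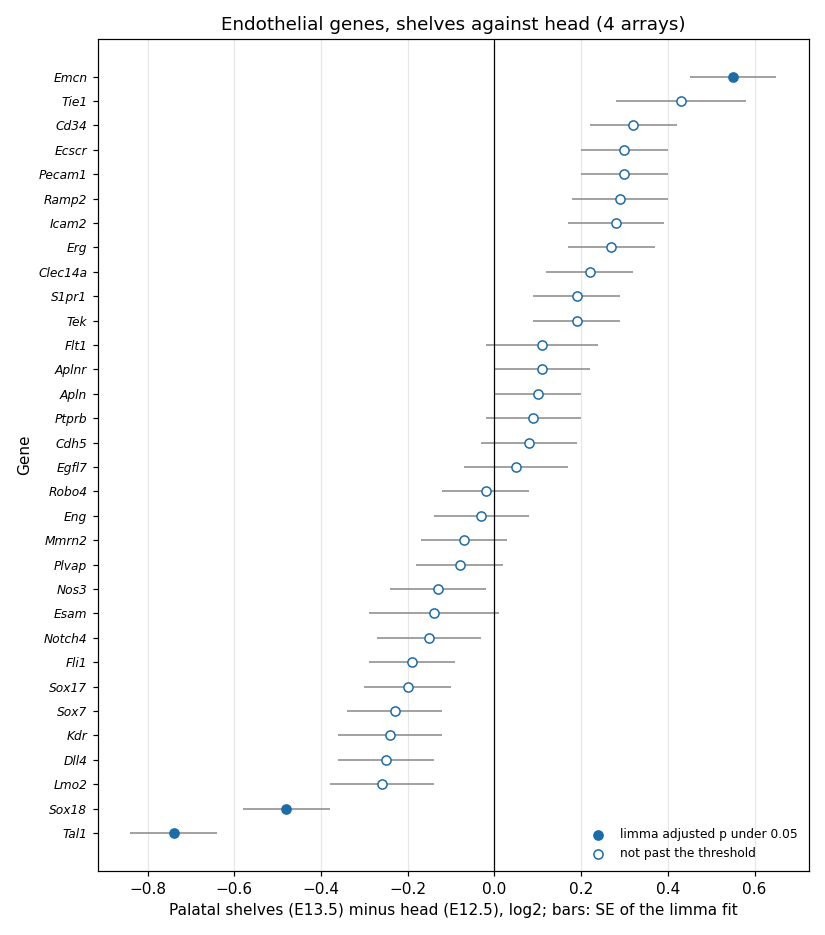
Shelves (E13.5) minus head (E12.5) log2 difference from the limma fit of all 4 arrays (x axis, bars give the SE) for the 32 endothelial genes in the fit (rows). Filled points passed an adjusted p of 0.05: Emcn at 0.55, Sox18 at -0.48 and Tal1 at -0.74.

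Of the Tie receptors and the SOX and ETS factors in this contrast, only Sox18 passed the test. Tie1 had a shelf minus head difference of 0.43 (SE 0.15, limma adjusted p 0.08), from 0.72 in KO embryos and 0.14 in WT embryos, and Tek had 0.19 (SE 0.10, limma adjusted p 0.211). All 3 SoxF genes had estimates below 0, at -0.48 for Sox18, -0.23 for Sox7 and -0.20 for Sox17, and the ETS factor genes Erg and Fli1 were at 0.27 and -0.19. Within genotypes, 22 of 35 genes were higher in KO shelves than in KO heads (median 0.15), and 17 of 35 in WT shelves than in WT heads (median -0.01). The sign was the same in both genotypes for 24 of 35 (68.6%), near the 66.7% of all named genes. Of the ligands, Angpt1 rose in the shelves by 1.08 (limma adjusted p 0.000744), Vegfa by 0.68 (0.0375), Vegfd by 0.59 (0.0493) and Angptl4 by 0.36 (0.0467). Brain barrier genes went both ways. Of 12 in the fit, 3 passed higher (background 13.0%) and 4 lower (background 14.9%) in the shelves, with a median of 0.10. In bulk tissue their levels need not come from endothelium. In the same contrast the medians were 1.78 for oral epithelium genes, 0.98 for mesenchyme genes and -2.04 for neuron genes. The part of those tissues in the barrier gene values was not tested. The tight junction gene Ocln rose by 0.72 (limma adjusted p 0.00855), Adgra2, a receptor for Wnt7 signals in brain vessels, by 0.66 (0.00521) and Itm2a by 0.50 (0.0115). The lipid transporter gene Mfsd2a fell by 1.36 (limma adjusted p 0.000259), the thyroid hormone transporter gene Slco1c1 by 1.01 (0.00191), Spock2 by 0.72 (0.011) and the amino acid transporter gene Slc7a5 by 0.51 (0.0197).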

How the data were processed

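The authors deposited log2 expression values per transcript cluster, which the submitters' processing notes trace to RMA in Affymetrix Expression Console. Software versions, genome build and annotation: not given in the sources used here. Per the labels' protocols, 100 ng of total RNA entered a WT PLUS labelling kit. In 1 other field of the labels the shelf samples are called heads; titles were followed. Of 41345 clusters, 23521 had 1 symbol in the platform annotation (1814 had several, 16010 were not listed), of which 23328 matched RefSeq GRCm38.p6 by Entrez identifier and 0 changed name; clusters of a gene were averaged. RMA compresses folds of dim genes, and removes shifts shared by most genes. Differences are KO minus WT and shelves minus head. The additive fit (genotype and tissue) used limma 3.58.1 (lmFit, eBayes, Benjamini-Hochberg) in R 4.3.3 on genes whose highest array reached 6.16, and was tested on simulated data. Named were Tbx1, all 36 genes, all ligands that entered, up to 4 genes per list and pair by absolute difference, and list genes that passed; the text gives a selection. Members and lists were chosen with earlier results of these data known. Alternatives were other scalings, the brightest cluster, other filters, variance priors and fold limits. Some list genes were not analysed here.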

Additional observations from a re-analysis of the deposited data

Results flagged for a closer look

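Tie1, the partner receptor of Tek, differed in opposite directions in the 2 tissues, with both differences larger than the SD over all genes of that pair (0.259 in the shelves and 0.157 in the head). It was 0.31 higher on the KO shelf array than on the WT shelf array and 0.27 lower on the KO head array than on the WT head array, on the log2 scale, so the 2 differences lie 0.58 apart. With 1 array per group the difference between tissues was not tested.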

How the results depend on the processing

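For genotype, 0 endothelial genes passed under any of the 11 alternatives, and no single gene's estimate crossed the threshold. The median KO minus WT difference in the head ran from 0.081 to 0.151 under all 9 alternatives. In the shelves it ran from 0.181 to 0.237 under 8 of 9, and was -0.013 with each array centred on Pecam1, Cdh5 and Tie1, a scaling that sets those 3 members to a mean difference of 0 by construction. Members above 0 in the shelves numbered 26 with quantile normalization again and 29 with cyclic loess (16 with that centring). The 1 member at least 1.5-fold higher in the shelves became 0 with that centring, 0 with the upper-quartile filter, 0 at 2-fold and 5 counted from an increase of 25%. In the head the 0 became 2 counted from an increase of 25%. Counted above or below 0 among genes that entered, a choice made after seeing the data, they were 26 and 3 in the shelves and 23 and 8 in the head. In the contrast of shelves with head, the 1 gene that passed higher became 2 (cyclic loess), 3 (upper-quartile filter), 4 (mean-variance trend), 2 (1 common variance) and 0 (that centring). The 2 that passed lower became 8 (that centring), 1 (no filter), 0 (upper-quartile filter, which drops both) and 1 (without members counted as also made by blood cells). Emcn was at 0.28 (limma adjusted p 0.222) with that centring. Over all genes, that centring changed the calls between tissues to 574 higher and 3555 lower, against 1555 and 1787. For genotype it called 21 higher and 51 lower, the trend 1 and 10, and a common variance 82 and 68, against 0 and 0. Each group has 1 array, so no replicate could be left out, and leaving out an array leaves no residual degree of freedom. No paired analysis was possible because the labels give no replicate numbers to use as a block; the genotype fit already compares KO with WT within each tissue, through its tissue term.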
